A study of Mus musculus with 6 samples.

Results

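The genes described here copy DNA or supply its building blocks: the replicative helicase and the factors that load it, the polymerases and primase, the sliding clamp with its loader and the enzymes that join new strands, the enzymes that make deoxynucleotides, and 3 genes that serve new chromatin. Of 37 genes listed by name, 36 had at least 1 probe set carrying that gene symbol alone in the authors' deposited comparison table, and these 36 genes had 80 probe sets, of 20678 genes with 38011 such probe sets in all. No probe set carried Chaf1a as its only symbol, and Chaf1a was not analysed here. Where a gene had several probe sets, the one with the highest mean log2 value stood for it, and all 36 genes passed the filter on low values.

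The study measured RNA of whole bone marrow from c-Jun inducible mice on Affymetrix arrays. Jun encodes c-Jun, which with Fos proteins forms the transcription factor AP-1. The 3 induced arrays came from mice given doxycycline, an antibiotic used to switch on inducible transgenes, at 1 mg/ml in their drinking water for 24 h, and the 3 control arrays from c-Jun inducible mice that had not been induced. Each array held RNA pooled from 3 mice, 8 weeks old. Both groups carried the inducible allele; its promoter and the cells in which it is active are not given in the sources used here. No array of mice that took doxycycline without the inducible allele was analysed here, so the antibiotic and the induced gene cannot be told apart.

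DNA replication starts when the Mcm2 to Mcm7 helicase is loaded onto origins in G1 and is activated in S phase, after which primase and the polymerases copy both strands, held in place by the clamp. Ribonucleotide reductase and its partner enzymes make the deoxynucleotides this consumes. Transcription factors of the E2F family switch many of these genes on as cells enter S phase, and in bone marrow the dividing cells are mainly immature erythroid, myeloid and B-lineage cells.

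Values below are linear signals of the deposited table in arbitrary units, and changes are differences of log2(signal + 16), induced minus control, which understate the change of dim genes. A gene was called when its adjusted p from limma, with Benjamini-Hochberg adjustment over all 31526 probe sets tested, was under 0.05. Of all signals in the table, 76.9% were at or under 2, the highest value that 27 probe sets for bacterial transcripts reached. Of the 36 genes, 27 were over 2 on all 6 arrays, and Tyms alone, thymidylate synthase, was at or under 2 on every array.

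The arrays differed in ways that touched every comparison. Summed signal was 222930 to 278500 on induced arrays and 189287 to 214237 on control arrays. Over the 2868 probe sets whose mean signal was over 10, the median log2 change was 0.24 on the signals as deposited and 0.06 after quantile normalization, so both scalings are given below. The Gapdh 5' to 3' ratio, a measure of RNA integrity, is the 5' probe set signal as a percent of the 3' probe set signal. It was 27.5% ± 1.58 on induced and 16.5% ± 5.50 on control arrays (SD, n = 3 each). The two-sided exact permutation p was 0.1, the smallest that 3 against 3 allows. Control array 2 had 346 signals of 0, against 4651 to 7813 on the other 5. Of the induced gene itself, Jun, one probe set averaged 2.80 ± 1.41 on induced and 1.13 ± 0.902 on control arrays, and the other 1.00 ± 0.854 on induced and 1.6 ± 0.781 on control arrays (SD, n = 3 each); both overlapped between groups, were at or near background and were not called by limma (adjusted p = 0.446 and 0.810). In the authors' deposited comparison table the ratio of control over induced was 0.573 for the first set (authors' unadjusted p = 0.00663), so higher in induced marrow. For the other set the ratio was 0.929 (authors' unadjusted p = 0.328). With both sets at or near background, these values do not check the labels of induction.

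The test called 5 of the 36 genes. Rrm2, Fen1 and Mcm3 were lower in induced marrow, and Mcm6 and Pcna were higher; Pcna stayed positive but was not called after quantile normalization, and lay the other way in the authors' ratio. Their promoters, from 250 bases before to 50 after the start in the RefSeq table (GRCm38.p6), are printed because these 5 genes carry the comparison and because E2F-type sites are a known feature of the family. Capitals mark each match to an E2F-type motif, searched as TTCCCGC or TTCGCGC or TTGCCGC or TTGGCGC on both strands with overlaps allowed. The Rrm2 promoter lies at chr12:24708004-24708303 (plus strand), that of Mcm3 at chr1:20820263-20820562 (minus strand), that of Mcm6 at chr1:128359656-128359955 (minus strand) and that of Pcna at chr2:132253131-132253430 (minus strand). Fen1 has 2 starts in the table, and the one with a match is shown, at chr19:10203872-10204171 (minus strand); the other, at chr19:10204344-10204643 (minus strand), held none.
Rrm2: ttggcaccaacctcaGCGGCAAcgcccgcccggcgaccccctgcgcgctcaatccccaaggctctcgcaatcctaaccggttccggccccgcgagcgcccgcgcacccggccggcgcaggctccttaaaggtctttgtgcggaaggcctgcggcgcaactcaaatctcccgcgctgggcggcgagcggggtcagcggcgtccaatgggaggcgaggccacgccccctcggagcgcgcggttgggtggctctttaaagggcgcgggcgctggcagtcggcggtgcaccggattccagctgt
Fen1: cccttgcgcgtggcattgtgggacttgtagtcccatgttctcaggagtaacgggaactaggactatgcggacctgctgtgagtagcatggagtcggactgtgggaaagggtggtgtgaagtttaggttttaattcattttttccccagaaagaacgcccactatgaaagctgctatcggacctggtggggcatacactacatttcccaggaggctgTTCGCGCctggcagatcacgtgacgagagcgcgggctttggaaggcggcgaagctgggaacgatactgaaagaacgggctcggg
Mcm3: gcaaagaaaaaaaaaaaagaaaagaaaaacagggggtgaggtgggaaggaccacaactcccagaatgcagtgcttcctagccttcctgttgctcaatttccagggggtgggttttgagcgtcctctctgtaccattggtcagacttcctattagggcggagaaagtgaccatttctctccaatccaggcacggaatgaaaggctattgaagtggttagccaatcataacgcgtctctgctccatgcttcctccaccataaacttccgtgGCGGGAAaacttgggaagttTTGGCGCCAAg
Mcm6: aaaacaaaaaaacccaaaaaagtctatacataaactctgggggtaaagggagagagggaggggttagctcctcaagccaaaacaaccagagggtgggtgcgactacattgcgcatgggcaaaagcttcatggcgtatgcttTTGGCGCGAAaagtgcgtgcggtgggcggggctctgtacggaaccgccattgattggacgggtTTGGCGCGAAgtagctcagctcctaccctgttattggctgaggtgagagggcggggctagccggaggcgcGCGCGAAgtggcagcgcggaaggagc
Pcna: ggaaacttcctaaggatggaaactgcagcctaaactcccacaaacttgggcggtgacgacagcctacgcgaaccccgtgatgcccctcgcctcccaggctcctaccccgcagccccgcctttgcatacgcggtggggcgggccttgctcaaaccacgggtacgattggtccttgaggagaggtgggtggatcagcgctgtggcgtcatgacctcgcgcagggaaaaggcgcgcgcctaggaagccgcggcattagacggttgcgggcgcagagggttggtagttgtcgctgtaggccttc

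Mcm6, which was higher, held 5 matches, and Pcna, whose direction depended on the table used, held 0. Among the genes that were lower, Mcm3 held 3, Rrm2 held 1 and Fen1 held 1. Overlapping matches on opposite strands were counted separately, so Mcm6 and Mcm3 show fewer stretches of capitals than matches. With 5 genes, match number and direction were not compared. Of the 36 genes, 30 had a promoter in the table, and 19 of these 30 (63.3%) held at least 1 E2F-type match, against 2936 of 27025 genes in the whole table (10.9%). CCAAT, searched on both strands, was in 17 of the 30 (56.7%) and in 41.1% of all. A match is a run of letters and was not measured as a bound site.

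Among the 36 genes, 3 were called lower (8.33%), against 1.83% of all 16273 genes tested, and 2 were called higher (5.56%), against 5.13%. After quantile normalization 9 were called lower (25%) and 1 higher (2.78%), against 3.67% of all genes in each direction. On the deposited signals the median log2 change was -0.086 for the 36 genes and -0.0015 for all genes tested. After quantile normalization the median of the 36 was -0.19. A negative change was seen in 24 of the 36 genes (66.7%) on the deposited signals and in 27 (75%) after quantile normalization, against 50.9% of all genes on the deposited signals. All 3 induced arrays lay below all 3 control arrays for 8 genes (22.2%), against 7.42% of all genes, and above them for 3 (8.33%), against 12.4%. In bulk marrow, fewer cells that express a gene and less RNA per cell cannot be told apart.

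**Figure D1:**
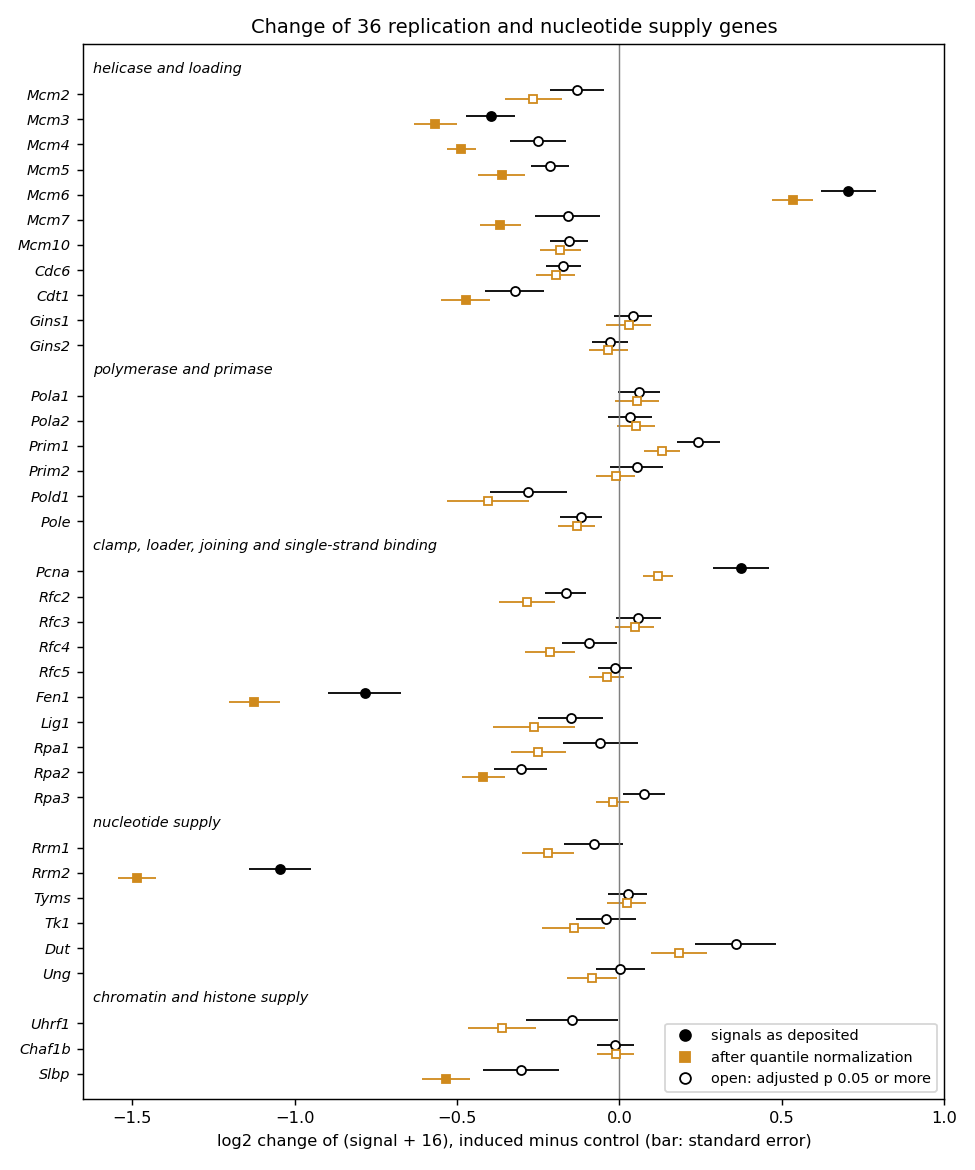
Log2 change of (signal + 16), induced minus control, of the 36 genes (horizontal axis; bars are standard errors of the limma fit, 3 arrays a group), grouped by role, on the signals as deposited (black circles) and after quantile normalization (orange squares); filled symbols are past adjusted p 0.05. Rrm2 and Fen1 lie farthest to the left and Mcm6 farthest to the right under both scalings, while Pcna is filled on the deposited signals only.

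Of the helicase and its loading factors, 11 genes were measured. By their brightest probe sets, the subunits of the same ring did not move together. Mcm3, a subunit of the Mcm2 to Mcm7 ring, fell. Its signals were 17.9, 12 and 12.5 on induced arrays and 23.5, 25 and 22.1 on control arrays, so that every induced array was below every control array (log2 change -0.40, SE 0.076, limma adjusted p = 0.0149). Mcm6, another subunit of that ring, rose by its brightest set. That set had 38.1, 31.3 and 31.6 on induced arrays and 12.2, 13.1 and 18.3 on control arrays, with no overlap (log2 change 0.70, SE 0.084, limma adjusted p = 0.00133). Mcm6 set 1438852_x_at averaged 17.5 on induced and 15.8 on control arrays and was not called (limma adjusted p = 0.857). Mcm6 set 1447756_x_at was near background. Both calls held after quantile normalization, at -0.57 (adjusted p = 4.72e-04) for Mcm3 and 0.53 (adjusted p = 4.92e-04) for Mcm6. The call of Mcm3 was lost without induced array 3 (adjusted p = 0.0714) and without control array 2 (adjusted p = 0.078). With the mean log2 value of all probe sets of a gene, neither Mcm3 nor Mcm6 was called.

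The other 4 ring subunits were not called on the deposited signals. Mcm4 had 79.9, 60.1 and 66.3 on induced arrays and 78.2, 84.9 and 90.5 on control arrays, overlapping through induced array 1 (log2 change -0.25, adjusted p = 0.174). Mcm7 had 39.1, 29.3 and 30.4 on induced arrays and 34.0, 35.3 and 46.9 on control arrays, which also overlapped. Mcm5 had 11.7, 13.3 and 15.2 on induced arrays and 17.8, 19.4 and 17.0 on control arrays, which did not overlap (adjusted p = 0.077). After quantile normalization all of Mcm4, Mcm5 and Mcm7 were called lower by limma, at -0.49 (adjusted p = 1.14e-04), -0.36 (adjusted p = 0.0131) and -0.37 (adjusted p = 0.00569). A second Mcm4 probe set was also lower after quantile normalization (-0.39, adjusted p = 0.0269), the one call among the 38 tested probe sets that did not represent their gene. Mcm2 averaged 11.8 on induced and 14.4 on control arrays and was called under neither scaling.

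Cdt1, which loads the helicase onto origins together with Cdc6, had signals of 15.9, 8.5 and 14.9 on induced arrays and 20.5, 19.7 and 20.2 on control arrays. The groups did not overlap, and limma called the gene after quantile normalization (log2 change -0.47, adjusted p = 0.00347) but not on the deposited signals (-0.32, adjusted p = 0.0884). Cdc6 was dim, at 1.8, 2.6 and 3.8 on induced arrays and 5.2, 4.9 and 5.2 on control arrays, again without overlap and without a call under either scaling. Mcm10, an initiation factor that helps activate the helicase, had 3.1, 3.1 and 1.4 on induced arrays and 5.2, 5.2 and 3.5 on control arrays, with no overlap and no call. Gins1 and Gins2 are subunits of the complex that joins Cdc45 and the ring into the active helicase. Gins1 averaged 3.63 on induced and 3.07 on control arrays, with overlap. Gins2 averaged 2.80 on induced and 3.17 on control arrays, also with overlap. Gins2 set 1452881_at, near background, had 3, 1.4 and 1.9 on induced arrays and 0.1, 0.2 and 0.1 on control arrays. These did not overlap and the set was not called (limma adjusted p = 0.122).

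None of the 6 polymerase and primase genes was called under either scaling, and most were dim. Prim1, the catalytic subunit of primase, was the one with no overlap, at 14.8, 11.9 and 10.4 on induced arrays and 7.2, 7.6 and 9.0 on control arrays (log2 change 0.24, limma adjusted p = 0.0718). Prim2, the other primase subunit, averaged 6.47 on induced and 5.60 on control arrays. Pola1 and Pola2 are subunits of polymerase alpha, which extends primers. Pola1 averaged 3.27 on induced and 2.50 on control arrays, and Pola2 averaged 1.67 on induced and 1.3 on control arrays. For the catalytic subunits of the main copying polymerases, Pold1 had 12.2, 7.8 and 10.0 on induced arrays and 20.1, 9.7 and 17.7 on control arrays. Control array 2 was the low one of its group and lay within the induced range, so leaving it out favours a call. Without it limma called Pold1 lower (log2 change -0.43, adjusted p = 0.0322), and in no other fit that left out 1 array. Pold1 set 1448187_at was near background, at 1.63 on induced and 1.53 on control arrays. Pole averaged 2.10 on induced and 3.67 on control arrays, with overlap.

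In the group of the clamp, its loader, strand joining and single-strand binding, Fen1 fell and the other strand-joining gene was not called. Fen1, the flap endonuclease that trims Okazaki fragments, had signals of 89.1, 67.3 and 60.1 on induced arrays and 123.2, 132.0 and 149.3 on control arrays. Every induced array was below every control array, and the log2 change was -0.78 (SE 0.112, limma adjusted p = 0.00343), or -1.12 after quantile normalization (adjusted p = 1.67e-05). The call held in each of the 6 fits that left out 1 array, with adjusted p between 4.14e-04 and 0.0279. It came from an _x_at set, whose probes may also match other transcripts, which leaving out arrays does not address. Fen1 set 1421731_a_at averaged 9.83 on induced and 12.3 on control arrays, with overlap and no call (limma adjusted p = 0.5). Lig1, the ligase that seals Okazaki fragments, had 9.0, 10.4 and 11.5 on induced arrays and 18.1, 8.9 and 13.2 on control arrays, which overlapped (log2 change -0.15, adjusted p = 0.619).

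Pcna, the sliding clamp, had 121.0, 92.4 and 106.1 on induced arrays and 73.5, 76.3 and 84.8 on control arrays. The groups did not overlap, and the log2 change on the deposited signals was 0.37 (SE 0.085, limma adjusted p = 0.0347). The median log2 change over the 2868 probe sets whose mean signal was over 10 was 0.24. After quantile normalization the change was 0.12 (adjusted p = 0.255), and the call was lost when any array other than induced array 2 was left out (adjusted p between 0.0554 and 0.14). In the authors' deposited table the Pcna ratio lay the other way, at 1.06 for control over induced with an unadjusted p of 0.405. The Pcna call was lost under each of the 3 other scalings tried (adjusted p between 0.168 and 0.255).

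The clamp loader genes Rfc2, Rfc3, Rfc4 and Rfc5 were not called under either scaling. Rfc2 averaged 9.37 on induced and 12.5 on control arrays, and Rfc4 averaged 8.70 on induced and 10.4 on control arrays. Rfc3 averaged 3.43 on induced and 2.63 on control arrays, and Rfc5 averaged 3.93 on induced and 4.13 on control arrays. The groups overlapped for each of the 4. Of the 3 subunits of replication protein A, which coats single-stranded DNA, Rpa2 had 10.2, 7.7 and 6.0 on induced arrays and 12.2, 11.9 and 16.7 on control arrays. These did not overlap, and Rpa2 was called lower after quantile normalization (log2 change -0.42, limma adjusted p = 0.00348) but not on the deposited signals (-0.30, adjusted p = 0.0712). Rpa1 averaged 24.8 on induced and 27.0 on control arrays, and Rpa3 averaged 8.93 on induced and 7.63 on control arrays, both with overlap.

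Of the 6 nucleotide supply genes, Rrm2 had by its brightest probe set the largest change among all 36 genes, and the other 5 were not called. Rrm2, the small subunit of ribonucleotide reductase and the one that varies with the cell cycle, had signals of 294.0, 219.5 and 256.1 on induced arrays and 500.6, 571.0 and 560.5 on control arrays. The highest induced array was well below the lowest control array, and the log2 change was -1.05 (SE 0.095, limma adjusted p = 3.40e-04), or -1.48 after quantile normalization (adjusted p = 2.36e-07). The call held in all 6 fits that left out 1 array, with adjusted p between 1.48e-04 and 0.00595. It came from an _x_at set, whose probes may also match other transcripts. Rrm2 set 1448226_at went the other way, at 19.4 on induced and 8.27 on control arrays (limma adjusted p = 0.0618). Rrm2 set 1416120_at averaged 3.43 on induced and 5.30 on control arrays, and neither set was called. With the mean log2 value of all its probe sets, Rrm2 was not called. Rrm1, the large subunit of the same enzyme, had 12, 11.9 and 16 on induced arrays and 10.9, 17.5 and 16.7 on control arrays, with overlap (log2 change -0.079, adjusted p = 0.810). Rrm1 set 1448127_at was dim, at 4.4, 3.5 and 2.4 on induced arrays and 0.3, 1.2 and 1.5 on control arrays. Its induced arrays all lay above its control arrays, without a call (limma adjusted p = 0.102). Rrm1 set 1440073_at averaged 0.5 on induced and 1.57 on control arrays, with overlap.

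Dut, the dUTPase that keeps uracil out of DNA and supplies dUMP, had 34.9, 23.6 and 28.0 on induced arrays and 14.4, 16.8 and 26.3 on control arrays. Control array 3 overlapped the induced group, and the gene was not called (log2 change 0.36, limma adjusted p = 0.195), except when that array was left out (adjusted p = 0.0396). Tk1, the thymidine kinase of the salvage pathway, averaged 8.37 on induced and 9.10 on control arrays. Ung, the glycosylase that removes uracil from DNA, averaged 8.83 on induced and 8.77 on control arrays. Tyms was at or under background throughout, so its transcript could not be compared here.

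Of the 3 genes for chromatin and histone supply, none was called on the deposited signals. Slbp, which binds the stem-loop of histone mRNAs, had 70.8, 47.1 and 64.1 on induced arrays and 75.0, 69.9 and 89.2 on control arrays, overlapping through induced array 1. It was called lower after quantile normalization (log2 change -0.53, limma adjusted p = 0.00152), against -0.30 on the deposited signals (adjusted p = 0.252). Uhrf1, which recruits the maintenance DNA methyltransferase to new DNA, had 75.2, 45.1 and 54.7 on induced arrays and 55.5, 78.3 and 63.1 on control arrays, called under neither scaling. Chaf1b, a subunit of the chromatin assembly factor that deposits histones behind the fork, averaged 1.80 on induced and 1.93 on control arrays.

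**Figure D2:**
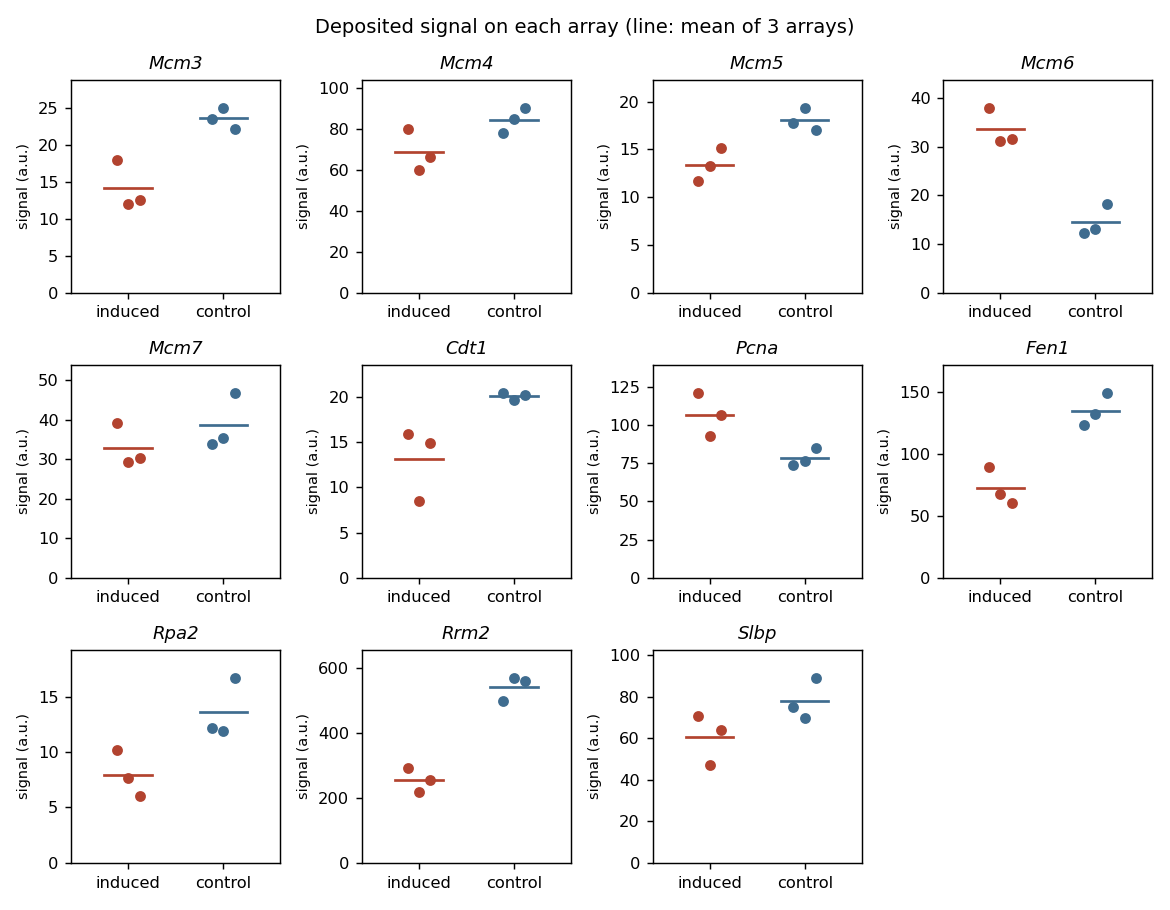
Deposited signal (vertical axis, arbitrary units, starting at 0) of the 11 genes called by limma on the deposited signals or after quantile normalization, with 1 point per array, induced left and control right, and a line at the mean of 3 arrays. The groups are apart for Mcm3, Mcm5, Mcm6, Cdt1, Pcna, Fen1, Rpa2 and Rrm2, and overlap for Mcm4, Mcm7 and Slbp; Mcm6 and Pcna are higher on induced arrays, though Pcna is not called after quantile normalization and its authors' ratio lies the other way.

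Summed over the 36 genes, the signal was 1071.3, 807.7 and 909 on induced arrays and 1215.3, 1331.2 and 1394.3 on control arrays, with no overlap (two-sided exact permutation p = 0.1, the smallest possible). Without Rrm2 the sums averaged 672.8 ± 96.1 on induced and 769.6 ± 60.1 on control arrays (SD, n = 3 each; exact permutation p = 0.3), and the groups overlapped. As a share of all signal on the array, which is higher on induced arrays, the 36 genes took 0.376% ± 0.0122 on induced and 0.638% ± 0.0148 on control arrays. Without Rrm2 those shares were 0.272% ± 0.00779 on induced and 0.374% ± 0.0173 on control arrays, again with no overlap (exact permutation p = 0.1).

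Each call rested on 1 of the gene's probe sets, and the others did not repeat it on the deposited signals. Of the 80 probe sets, 74 were tested, and none of the 38 tested ones that did not represent their gene was called. The Rrm2 call came from 1434437_x_at, and in Affymetrix naming an _x_at set has probes that may also match other transcripts, so its signal cannot be given to Rrm2 with certainty. Rrm2 set 1448226_at had 20.8, 26.2 and 11.1 on induced arrays and 7.4, 9.6 and 7.8 on control arrays, all induced arrays being above all control arrays (log2 change 0.52, limma adjusted p = 0.0618). Rrm2 set 1416120_at had 4.2, 3.2 and 2.9 on induced arrays and 3.6, 5.3 and 7.0 on control arrays. The 3 sets of Rrm2 thus did not share a direction on the deposited signals.

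The other called genes with several probe sets likewise had only 1 called set each. Fen1 was called from 1436454_x_at. Its set 1421731_a_at was also lower on average in induced marrow but overlapped. That set had 7.3, 12.1 and 10.1 on induced arrays and 12.6, 10.7 and 13.7 on control arrays (adjusted p = 0.5). Mcm3 was called from 1420028_s_at, a class of set that matches several transcripts, and its other 4 sets had log2 changes between -0.13 and 0.056, none of them called. Mcm6 was called from 1416251_at, while its set 1438852_x_at had 23.3, 15.1 and 14.2 on induced arrays and 18.1, 15.4 and 13.8 on control arrays (adjusted p = 0.857) and the third set was near background. Pcna had 1 probe set. With the mean log2 value of all its probe sets in place of the brightest, limma kept the call of Fen1 (adjusted p = 0.00335) and lost those of Rrm2 (adjusted p = 0.127), Mcm3 (adjusted p = 0.0883) and Mcm6 (adjusted p = 0.0581). With a pseudocount of 1 in place of 16, none of the 5 genes was called (adjusted p between 0.202 and 0.675).

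**Figure D3:**
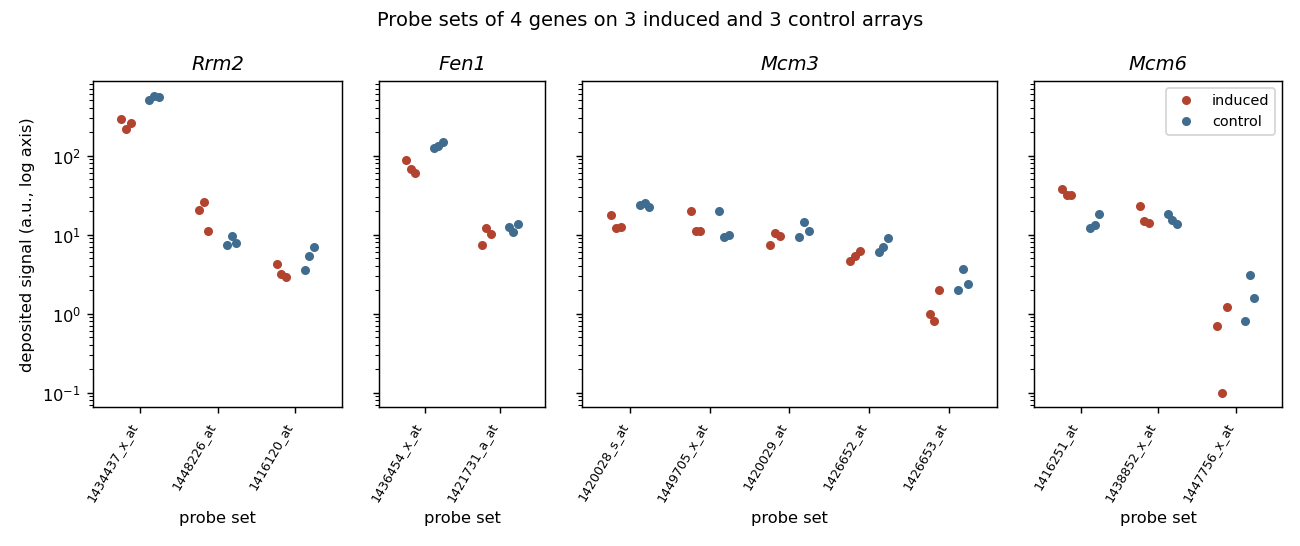
Deposited signal (vertical log axis, arbitrary units) of each probe set of Rrm2, Fen1, Mcm3 and Mcm6, with 3 induced arrays (red, left) and 3 control arrays (blue, right) per probe set, brightest set first. The groups are apart for the brightest set of each gene, and for the second Rrm2 set they are apart in the opposite direction.

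The authors' deposited comparison table gives for each probe set an unadjusted p-value and a ratio of control over induced, so that a ratio over 1 means lower in induced marrow. In the authors' deposited table the ratio was over 1 for 25 of the 36 genes (69.4%), against 50.2% of all genes. An unadjusted p under 0.05 in the authors' deposited table came with control higher for 15 genes (41.7%), against 7.71% of all genes, and with induced higher for 4 (11.1%), against 10.2%. The largest ratio in the authors' deposited table was that of Rrm2, at 2.63, with Pold1 at 2.47, Fen1 at 2.25, Mcm3 at 2.13 and Cdt1 at 2.05 next. The ratio was under 1, so higher in induced marrow, for 11 genes. The 4 of them with an unadjusted p under 0.05 were Mcm6 at 0.557, Rpa3 at 0.636, Rfc5 at 0.696 and Dut at 0.709. These values come from the same 6 arrays and are no independent evidence.

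The authors' ratios and the ratios of deposited mean signals were not the same quantity for every gene. Signs differed between the authors' ratio and the log2 change for 5 of the 36 genes, Pcna and Rfc5 among them, and 4 of the 5 called genes had the same direction in both. Of the 28 genes with several probe sets, 18 had all authors' ratios on the same side of 1, against 10 by the deposited signals. In the authors' deposited table all 3 Rrm2 probe sets had ratios over 1, between 1.47 and 2.63, and so did all 5 Mcm3 sets, between 1.33 and 2.13, and all 4 Mcm7 sets, between 1.61 and 1.72. For 1448226_at, the Rrm2 set that was higher on the induced arrays, the authors' deposited table gave 1.47, the other direction. How the values behind that table were made is not given in the sources used here.

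**Figure D4:**
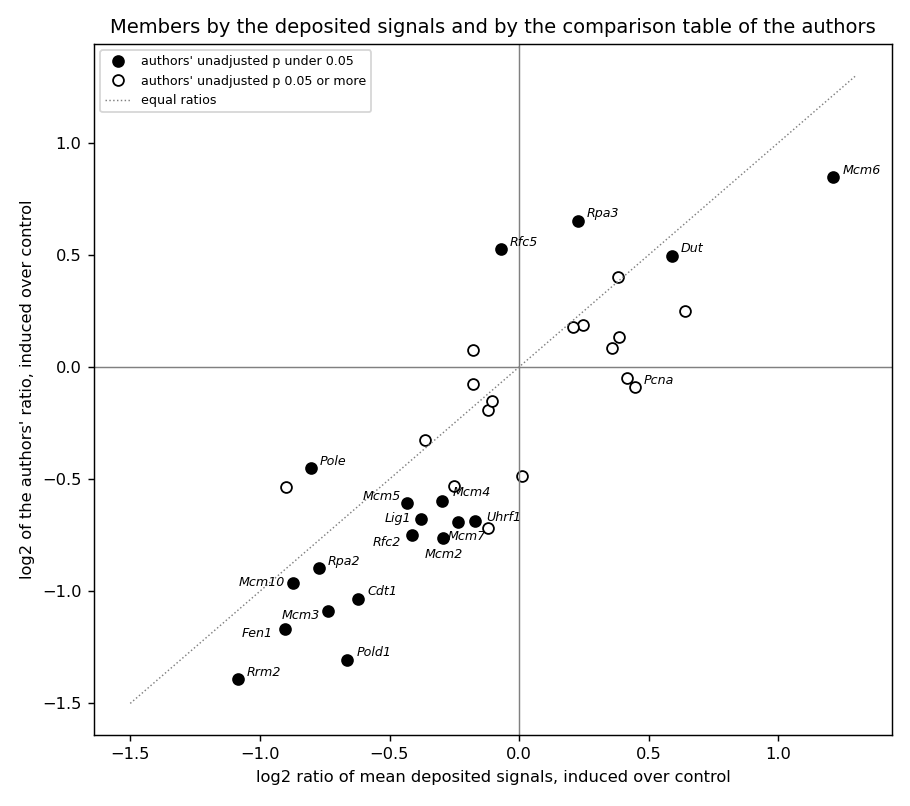
Log2 ratio of induced over control for the 36 genes, by mean deposited signals (horizontal axis) and by the authors' deposited table turned to the same direction (vertical axis); filled points have an authors' unadjusted p under 0.05, names mark those and the called genes, and the dotted line marks equal ratios. By both ratios 22 genes are lower and 9 higher on induced arrays; Mcm6 lies farthest to the upper right, and Pcna lies right of 0 but just below it on the vertical axis.

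Among 60 other genes of replication and nucleotide metabolism found in the table, 59 were tested, with a median log2 change of -0.022. Limma called 5 lower and 2 higher, beside 1.83% lower and 5.13% higher of all genes tested. After quantile normalization 9 were lower and 2 higher, beside 3.67% of all genes in each direction. The salvage enzyme Dck, deoxycytidine kinase, had 47.0, 37.0 and 39.1 on induced arrays and 95, 114.6 and 120.1 on control arrays (log2 change -1.14, adjusted p = 1.35e-04). Its other 2 probe sets were dim and not called, at 2.87 on induced and 2.07 on control arrays for the first, and at 4.97 on induced and 5.83 on control arrays for the second (adjusted p = 0.757 and 0.909). Dnmt1, the maintenance DNA methyltransferase, had 56.1, 43.4 and 53.2 on induced arrays and 115.4, 108.3 and 99.2 on control arrays (log2 change -0.89, adjusted p = 3.21e-04). All 3 probe sets of Dnmt1 were called lower, while none of the 36 genes above had more than 1 called set. Asf1b, a histone chaperone, averaged 18.7 on induced and 32.9 on control arrays (adjusted p = 0.00166), and Dbf4, the regulatory subunit of the kinase that fires origins, averaged 9.43 on induced and 14.7 on control arrays (adjusted p = 0.0348). Dna2, a nuclease and helicase of flap processing, averaged 3.93 on induced and 7.43 on control arrays (adjusted p = 0.0376). Nme2, a nucleoside diphosphate kinase, rose to 62.5 on induced arrays, against 26.7 on control arrays (adjusted p = 9.83e-04), and so did Dctpp1, which breaks down dCTP, to 9.67 on induced arrays, against 4.93 on control arrays (adjusted p = 0.0148). Among probe sets that did not represent their gene, 1 of Paics, an enzyme of purine synthesis, was called higher (12.7 on induced and 6.73 on control arrays, adjusted p = 0.0141), as was 1 of Orc4, a subunit of the origin recognition complex (5.20 on induced and 2.17 on control arrays, adjusted p = 0.0449). The brightest sets of Paics and Orc4 were not called.

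Genes of the G1 to S transition and of mitosis were counted beside them. The share of all genes called lower was 1.83%, or 3.67% after quantile normalization. Of 25 tested regulators of the G1 to S transition, limma called 4 lower and 0 higher (5 lower after quantile normalization), namely E2f2 and E2f8 of the E2F family, the E2F partner Tfdp2, and the D-type cyclin Ccnd3. Ccnd3 had 17.5, 15.2 and 15.7 on induced arrays and 28.1, 27.8 and 33.7 on control arrays (adjusted p = 0.00152). Of 23 tested mitosis genes, 3 were called lower (Mki67, Birc5 and Kif23) and 0 higher (8 lower after quantile normalization). Mki67, the proliferation marker Ki-67, had 42.7, 28.1 and 33.1 on induced arrays and 123.9, 116.5 and 131.0 on control arrays (log2 change -1.47, adjusted p = 5.53e-05). Top2a, the topoisomerase of dividing cells, had 36.8, 39.1 and 33.1 on induced arrays and 43.7, 53.9 and 39.0 on control arrays and was not called (adjusted p = 0.239).

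Markers of the cell types that make up marrow moved between the same arrays, on which 1.83% of all genes were called lower and 5.13% higher. Of 19 erythroid markers, 15 were called lower and 0 higher, and their summed signal was 334.2 to 413.8 on induced arrays and 1375 to 1580.2 on control arrays; Tfrc, the transferrin receptor of dividing erythroid cells, had 45.6, 38.9 and 36.4 on induced arrays and 249.8, 299.3 and 271.4 on control arrays. Of 6 promyelocyte markers 5 were called lower, with sums of 111.4 to 143.5 on induced and 228.3 to 275 on control arrays. Early B-lineage markers summed to 117.4 to 146.4 on induced and 119.4 to 138.7 on control arrays, with 1 of 9 called higher (Cd79b) and 1 lower (Dntt). The similar sums held opposite moves. Dntt averaged 9.17 on induced and 32.5 on control arrays, and Cd79b 45.8 on induced and 26.2 on control arrays. Of the 10 early B genes, 3 had all induced arrays above all control arrays (Vpreb3, Cd79a and Cd79b), beside 12.4% of all genes. For 2 (Vpreb1 and Dntt) all induced arrays lay below, beside 7.42%. Each of these lists had its markers over background on at least 1 array, except Pax5 of the early B list.

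In 4 other marker lists some genes were called higher and none lower, beside 5.13% of all genes called higher. Limma called 4 of 7 mature B markers higher (sums of 174.8 to 214.8 on induced and 63.5 to 65.2 on control arrays), 5 of 8 macrophage markers (105.1 to 129.4 on induced and 50.3 to 61.3 on control arrays), 2 of 7 mature neutrophil markers (230.1 to 289 on induced and 158.8 to 203 on control arrays) and 3 of 4 eosinophil markers (220.9 to 269.3 on induced and 22.1 to 31.8 on control arrays). The 4 called genes of the mature B list were H2-Eb1, H2-Aa, H2-Ab1 and Cd74, which serve antigen presentation on MHC class II and are shared with macrophages. Its B cell gene Ms4a1 averaged 13.4 on induced and 8.10 on control arrays and was not called (adjusted p = 0.292), and Fcer2a and Cr2 averaged under 2 in both groups. In the neutrophil list Slpi and Il1r2 were called, while Mmp9 averaged 82.2 on induced and 83.8 on control arrays (adjusted p = 0.920). None of 6 T cell markers was called, and their sums were 8.6 to 11.5 on induced and 4.9 to 7.4 on control arrays. The part of these shifts in the values of the replication genes was not tested, nor was that of the Gapdh 5' to 3' ratio.

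**Figure D5:**
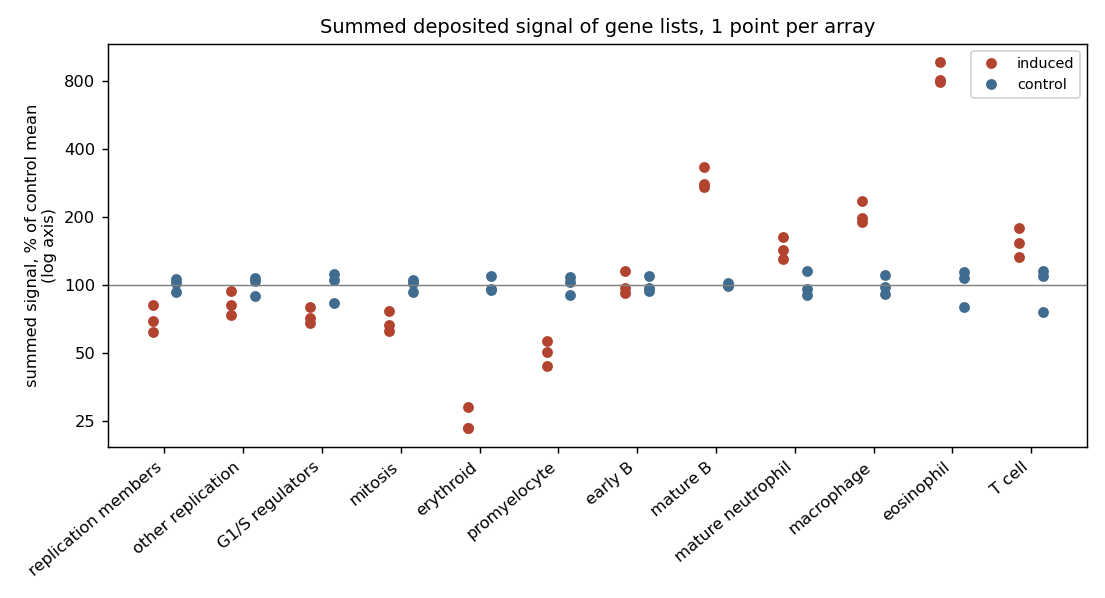
Summed deposited signal of each gene list on each array as a percent of the mean of the 3 control arrays (vertical log axis), induced arrays in red and left, control arrays in blue and right. The 36 replication genes average 70.8% of the control mean on induced arrays, or 87.4% without Rrm2, beside 83.0% for the other replication genes, 68.3% for the mitosis list and 72.6% for the G1 to S list, while the erythroid list averages 24.9% and the eosinophil list 856%.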

How the data were processed

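Arrays were grouped by the labels, 3 induced and 3 control, each from 3 pooled mice that the labels call biological replicates; p-values measure the spread between these pools. Per the submitters' processing notes, the deposited signal intensity values of 45101 probe sets were made with MAS5, whose version and target level are not given in the sources used here. The authors' deposited comparison table holds, per the file headers, p-values without adjustment and ratios on a linear scale, control divided by induced. Per the labels' protocols, 10 ug of Trizol-extracted RNA was amplified and labelled with biotin.

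Signals were used as deposited, as log2(signal + 16). Probe sets over the 30th percentile of mean log2 value were tested in limma 3.58.1 under R 4.3.3 (lmFit, then eBayes), after 64 control probe sets were left out. Symbols came from the comparison table, in which 38011 probe sets carry a single symbol, 1280 more than one and 5746 none. The background of 2 was set after the data were seen. The members and lists were chosen with earlier results of these data known. Every member is named, other replication genes where called, and at most the 3 brightest of each marker list, together with called genes of short counts and some list members, picked with their values known. Alternatives were scaling by quantiles, trimmed mean and bright median, pseudocounts of 1 and 64, other filters, an intensity trend, array weights, the replicate block, a threshold of 0.1, a mean over a gene's probe sets, the authors' p-values, and leaving out each array. Scripts were tested on simulated data; promoters came from RefSeq (GRCm38.p6), and figures from matplotlib 3.10.9. The precision is limited by the number of arrays.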

Additional observations from a re-analysis of the deposited data

How the results depend on the processing

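Of 684 values of single member genes under 19 alternatives, 26 lost a call, 26 gained one, and 1 called value, that of Pcna, changed sign (log2 change -0.090 by the authors' ratio). The other 631 stayed on the same side of the threshold, of which 34, called in neither fit, changed sign. The call held in 17 of 19 alternatives for Rrm2, 18 for Fen1, 16 for Mcm6, 12 for Mcm3 and 5 for Pcna. The cause of these changes was not tested.

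Against 3 member genes called lower and 2 higher, the counts were 9 and 1 after quantile normalization, 6 and 1 with 1 trimmed mean, and 10 and 1 with 1 bright median. Shares of all genes called by limma are given above only for the deposited signals and after quantile normalization. A pseudocount of 1 left 0 and 0, and also 0 of the other replication genes in each direction; of 64, 1 higher. Higher calls numbered 1 without a filter, 1 with an intensity trend, 1 with the mean of all probe sets and 0 with the authors' p-values. Lower calls numbered 6 at adjusted p under 0.1 and 1 with the mean of all probe sets (Fen1). Leaving out 1 array gave 2 to 6 lower (6 without induced array 1) and 1 to 2 higher.

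The median log2 change of the members, -0.086, was -0.19 after quantile normalization, -0.21 with 1 bright median, -0.17 with a pseudocount of 1, -0.47 by the authors' ratios, -0.026 with the mean of all probe sets, and -0.11 to -0.046 with 1 array left out. Other replication genes numbered 9 lower after quantile normalization, 9 with 1 bright median, 3 with a pseudocount of 64, 3 without a filter, 4 higher at adjusted p under 0.1 and 0 higher by the authors' p-values; with 1 array left out, 3 to 7 were lower and 2 to 4 higher. The Gapdh 5' to 3' ratio, in percent, differed between groups by 9.04 to 14.1 percentage points with 1 array left out.

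Same-numbered arrays did not deviate together (correlations of -0.0693, 0.0378 and -0.0303), so the replicate number was not taken as a pairing. With it as a replicate block, 1 member gene was higher and 3 lower, and 3 other replication genes were lower. Genes near a signal of 2, such as Tyms, Pola2 and Chaf1b, are limited by signal over background.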
